A study of Mus musculus with 6 samples.

Results

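A set of 10 genes that mark megakaryocytes and platelets was followed in mouse spleen: the granule chemokine genes Pf4 and Ppbp, the integrin genes Itga2b and Itgb3, the glycoprotein genes Gp1bb, Gp9, Gp5 and Gp6, the receptor gene Treml1 and the von Willebrand factor gene Vwf. They were picked by name, with every array probe whose RefSeq transcript carries 1 of these symbols, which gave 13 probes for 10 of the 20659 named genes on the array. In the scanner files none of the 9 genes that could be tested differed between the groups past the limits used here, against 12.8% of all tested genes. In the log2 value table that the authors deposited for the same samples, 7 of the same 9 genes were called lower in the SA-H group, against 6.92% of all tested genes. The count was 4 of 9 when any 1 of the columns SA-H 5, MOD 1 or MOD 2 was left out, with 776 to 1101 of 14474 tested genes called lower. Both sets of values are given side by side below, because the table did not follow the arrays.

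Each group held 3 spleen samples from male ICR mice, an outbred stock, aged 8 weeks. The SA-H group had received cyclophosphamide at 40 mg/kg for 5 days and Schisandrol A, a lignan of Schisandra fruit, at 1000 mg/kg per day, and its samples are labelled day 28. The MOD group had received the same cyclophosphamide course without Schisandrol A, and its samples are labelled day 5, so that the compound and the labelled day cannot be told apart, although the protocol in the labels gives model mice water over the same weeks. The study's methods give another dose and length of Schisandrol A treatment than the labels do, and the labels are followed here, with the group named as the study names its high-dose group. Cyclophosphamide is an alkylating drug that suppresses the bone marrow, all 6 samples had it, and mice without it were not analysed here. RNA of whole spleen was measured, so fewer megakaryocytes or platelets and less RNA in each of them cannot be told apart. The labels do not say that the 3 samples of a group came from separate mice, so the p-values reflect the spread among these samples alone, and part of it may be technical.

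Megakaryocytes are large polyploid cells that shed platelets, and in mice the spleen holds megakaryocytes as well as a store of platelets. Their genes are driven by GATA1 together with ETS family factors such as FLI1 under the hormone thrombopoietin. Platelets stick to a damaged vessel wall when the glycoprotein Ib-IX-V complex catches von Willebrand factor and glycoprotein VI binds collagen, after which the integrin made of Itga2b and Itgb3 binds fibrinogen and granules release Pf4 and Ppbp.

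Promoters of 3 of these genes are shown for the letters of the GATA and ETS factors that the lineage uses: Pf4 and Ppbp, neighbours whose arrays gave opposite signs, and Gp5, with the most GATA matches. Each run covers 250 bases before to 50 bases after the transcription start in RefSeq, build GRCm38.p6, 5′ to 3′ on the strand of the gene. Capitals mark GATA letters (AGATAA, or the same with T in first place, with G in last place, or with both) and ETS letters (AGGAA, or the same with C in first place), searched on both strands. The Pf4 window lies at chr5:90772185-90772484 on the plus strand, Ppbp at chr5:90768268-90768567 on the plus strand, and Gp5 at chr16:30310732-30311031 on the minus strand.
Pf4: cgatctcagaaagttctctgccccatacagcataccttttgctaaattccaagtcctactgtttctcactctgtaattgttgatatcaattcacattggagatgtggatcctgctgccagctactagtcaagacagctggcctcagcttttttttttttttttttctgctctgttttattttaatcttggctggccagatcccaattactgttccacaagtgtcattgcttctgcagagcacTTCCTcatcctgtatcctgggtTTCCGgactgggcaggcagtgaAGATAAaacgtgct
Ppbp: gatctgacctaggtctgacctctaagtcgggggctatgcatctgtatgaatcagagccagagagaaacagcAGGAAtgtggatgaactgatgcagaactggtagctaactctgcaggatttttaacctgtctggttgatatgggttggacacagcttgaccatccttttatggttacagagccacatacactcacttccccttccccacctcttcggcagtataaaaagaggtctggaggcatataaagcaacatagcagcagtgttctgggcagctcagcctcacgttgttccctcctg
Gp5: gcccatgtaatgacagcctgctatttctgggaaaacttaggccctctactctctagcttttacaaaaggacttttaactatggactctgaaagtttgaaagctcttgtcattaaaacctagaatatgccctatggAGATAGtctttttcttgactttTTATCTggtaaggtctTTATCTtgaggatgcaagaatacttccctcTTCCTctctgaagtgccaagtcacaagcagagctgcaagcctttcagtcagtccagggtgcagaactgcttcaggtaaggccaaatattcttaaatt
The Pf4 window held 1 GATA match and 2 ETS matches, the Ppbp window no GATA match and 1 ETS match, and the Gp5 window 3 GATA matches and 1 ETS match. Of the 10 genes, 8 had a promoter in the table used. GATA letters were found in 4 of these 8 (Pf4, Gp1bb, Gp5 and Gp6), against 29.8% of 32851 promoters of the same length. ETS letters were found in 8 of 8, against 78.0% of all promoters, and both in 4 of 8, against 23.2%. A match describes letters and not a bound site.

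The 6 arrays differed in brightness. The 75th percentile of the spot signal was 220, 868 and 433 on the arrays SA-H 4, 5 and 6, and 626, 840 and 599 on the arrays MOD 1, 2 and 3. Between 44.7% and 73.9% of spots were well above background in the SA-H group, and between 43.1% and 72.2% in the MOD group, and no spot was saturated. A level below is the log2 signal of a probe minus the 75th percentile of its array, which places it on a scale for comparing arrays but not probes. Ribosomal protein genes had a median change of 0.59 on the log2 scale over 24 tested, against 0.1 in the authors' value table. Their summed level (linear, as signal over the 75th percentile) was 1820 to 3964 on SA-H arrays and 1434 to 1813 on MOD arrays. They were listed as a check of RNA quality, but RNA integrity itself was not examined here, and the cause of their difference was not tested. With 3 arrays a group, precision was limited by their number.

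Of 14474 genes and unnamed targets tested with limma on the scanner files, 12.8% were called, which means a fold change of at least 2 with an unadjusted p under 0.05. Of all tested, 7.74% were called higher and 5.03% lower in the SA-H group (60.6% of the calls higher, against 31.6% when arrays were scaled by their median), and the median change over all of them was -0.04 on the log2 scale. An unadjusted p under 0.05 alone was reached by 23.3%, 10.8% higher and 12.5% lower. After Benjamini-Hochberg adjustment 0.0% passed, that is 0 genes, against 3377 at the unadjusted threshold, and an unmoderated analysis of variance also gave 0. Of the 10 listed genes 9 were bright enough to test, and 0 of 9 were called, 0 of 9 had an unadjusted p under 0.05, and 1 had groups that did not overlap. Over all tested genes 32.7% had groups that did not overlap, 11.9% higher and 20.7% lower in the SA-H group. The changes of the 9 genes lay between -0.55 and 0.47 on the log2 scale with a median of 0.13, 6 above 0 and 3 below. Among those below 0, Itga2b and Gp5 were well above background on every MOD array but on 2 of 3 SA-H arrays. They were thus kept only through the group where they were higher, so their sign was partly set by the filter. Without array SA-H 4 they stood at 0.20 and -0.01. All 9 confidence intervals included 0 and 5 of them included a fold change of 2, so for those 5 a change of that size lay within the error. Scaling by the median moved all genes down, to a median of -0.36, and the 9 genes to -0.19. Itgb3, Gp9 and Gp6 were then below 0. The median of the 9 genes lay 0.17 above the median of all genes. That gap is the same in both scalings by construction, because each takes 1 value per array from every gene. The arrays were scanned on different days, with SA-H 5 alone on its day. A fit blocked by scan day, in which SA-H 5 carries no weight, called 0 of 9 genes, against 2680 of all 14474 tested. Its median over the 9 genes was 0.26. The count of 0 at an unadjusted p under 0.05 became 1 in that fit, Treml1 at 0.70 (limma adjusted p = 0.133). Over all 14474 tested, 4438 reached that p there. The count was also 1 with the recorded scan time, which some arrays shared, as a random block, Ppbp at -0.66 (limma adjusted p = 0.170). In that fit 3886 of all 14474 tested reached it. On the day shared by SA-H 6, MOD 1 and MOD 3 the median was 0.20, and on the day shared by SA-H 4 and MOD 2 it was 0.35.

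The chemokine genes pointed in opposite directions. Pf4 encodes platelet factor 4, which binds heparin and is stored in platelet granules. Its levels were 6.05, 5.05 and 5.59 on the arrays SA-H 4, 5 and 6, and 5.21, 5.23 and 5.00 on the arrays MOD 1, 2 and 3. Array SA-H 4 was the highest and array MOD 3 the lowest, and SA-H 5 lay inside the MOD range. Pf4 averaged 5.56 ± 0.50 in the SA-H group and 5.15 ± 0.13 in the MOD group (SD, n = 3 each), a change of 0.42 on the log2 scale with a 95% confidence interval of -0.30 to 1.13 (limma adjusted p = 0.423). Ppbp lies beside Pf4 on chromosome 5 and encodes a precursor of neutrophil-attracting chemokines. Its levels were 3.97, 4.31 and 4.56 on the SA-H arrays, and 4.88, 5.02 and 4.61 on the MOD arrays. Every SA-H array lay below every MOD array, and the closest values, SA-H 6 and MOD 3, were nearly equal. Ppbp averaged 4.28 ± 0.30 in the SA-H group and 4.83 ± 0.21 in the MOD group (SD, n = 3 each), which is 1.47-fold lower, with a log2 change of -0.55 and an interval of -1.16 to 0.06 (limma adjusted p = 0.245). Ppbp had the lowest p of the 9 genes.

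The integrin genes gave a small difference for Itgb3 and an unsettled one for Itga2b. Itga2b encodes the alpha subunit of the fibrinogen receptor, which marks the lineage from its progenitors onward. Its levels were -3.77, -1.86 and -1.66 on the SA-H arrays and -2.01, -2.05 and -1.83 on the MOD arrays. The probe was not well above background on array SA-H 4, the dimmest array, which stood far below the rest, and arrays SA-H 5 and 6 lay close to the MOD arrays. The change of Itga2b was -0.47 on the log2 scale with an interval of -1.75 to 0.82 (limma adjusted p = 0.612), and 0.20 without array SA-H 4. Itgb3 encodes the beta subunit, which also pairs with the alpha V integrin outside platelets. Its brighter probe had levels of 3.54, 3.20 and 3.47 on the SA-H arrays and 3.11, 3.21 and 3.43 on the MOD arrays, with overlapping groups. The change was 0.15 with an interval of -0.39 to 0.70 (limma adjusted p = 0.700). The other Itgb3 probe had levels of -0.22, -1.68 and -1.26 on the SA-H arrays and -1.88, -1.17 and -1.47 on the MOD arrays, which overlapped as well, and its change was 0.45 with an interval of -0.52 to 1.42 (limma adjusted p = 0.513).

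The receptor complex for von Willebrand factor is made of glycoproteins encoded by Gp1ba, Gp1bb, Gp9 and Gp5. Gp9, a small subunit needed to bring the complex to the surface, had levels of 2.18, 2.04 and 2.33 on the SA-H arrays and 2.84, 1.70 and 1.95 on the MOD arrays. The SA-H arrays lay within the MOD range, and the change of 0.02 had an interval of -0.77 to 0.81 (limma adjusted p = 0.977). Gp5, the subunit that thrombin cleaves, had levels of -3.61, -2.13 and -2.24 on the SA-H arrays and -2.09, -2.26 and -2.18 on the MOD arrays. Array SA-H 4 again stood apart and below, and the probe was not well above background there. The change of Gp5 was -0.48 with an interval of -1.46 to 0.49 (limma adjusted p = 0.487), and -0.01 without array SA-H 4. Gp1bb, the beta chain of the complex, had 3 probes, which were well above background on 2, 0 and 1 of 6 arrays, so it was not tested. The brightest Gp1bb probe gave signals of 26.4, 59.8 and 21.5 on the SA-H arrays and 27.6, 75.7 and 21.6 on the MOD arrays, before scaling to the array. As levels these were -3.06, -3.86 and -4.33 on the SA-H arrays and -4.50, -3.47 and -4.80 on the MOD arrays. The group means of the 3 probes differed by 0.51, -0.52 and 1.41, in the order above. Gp1ba, which carries the binding site for von Willebrand factor and was added as the partner of the listed subunits, averaged 2.67 ± 0.43 in the SA-H group and 2.09 ± 0.18 in the MOD group (SD, n = 3 each). Its change was 0.58 with an interval of -0.09 to 1.26 (limma adjusted p = 0.263).

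The remaining genes encode a collagen receptor, a granule receptor and an adhesive ligand. Gp6, the collagen receptor, had levels of 0.05, -0.40 and -0.02 on the SA-H arrays and 0.10, -0.70 and -0.17 on the MOD arrays. The groups overlapped, and the change was 0.13 with an interval of -0.55 to 0.82 (limma adjusted p = 0.795). Treml1 encodes a receptor that moves from granules to the platelet surface on activation. Its levels were 1.92, 1.40 and 2.01 on the SA-H arrays and 1.35, 1.05 and 1.53 on the MOD arrays. Arrays SA-H 4 and 6 lay above every MOD array and SA-H 5 did not, and Treml1 had the highest change among the 9 genes, 0.47, with an interval of -0.171 to 1.104 (limma adjusted p = 0.325). Vwf, made by megakaryocytes and by endothelial cells, had levels of 2.50, 2.69 and 2.95 on the SA-H arrays and 2.52, 2.15 and 2.48 on the MOD arrays. The groups overlapped by the value of array SA-H 4, and the change was 0.33 with an interval of -0.25 to 0.90 (limma adjusted p = 0.429). Endothelial markers stood at a median change of 0.05 with 15 of 18 tested, and their summed level was 30.6 to 41.5 on SA-H arrays and 26.8 to 39.7 on MOD arrays. Their part in the Vwf value was not tested.

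**Figure D1:**
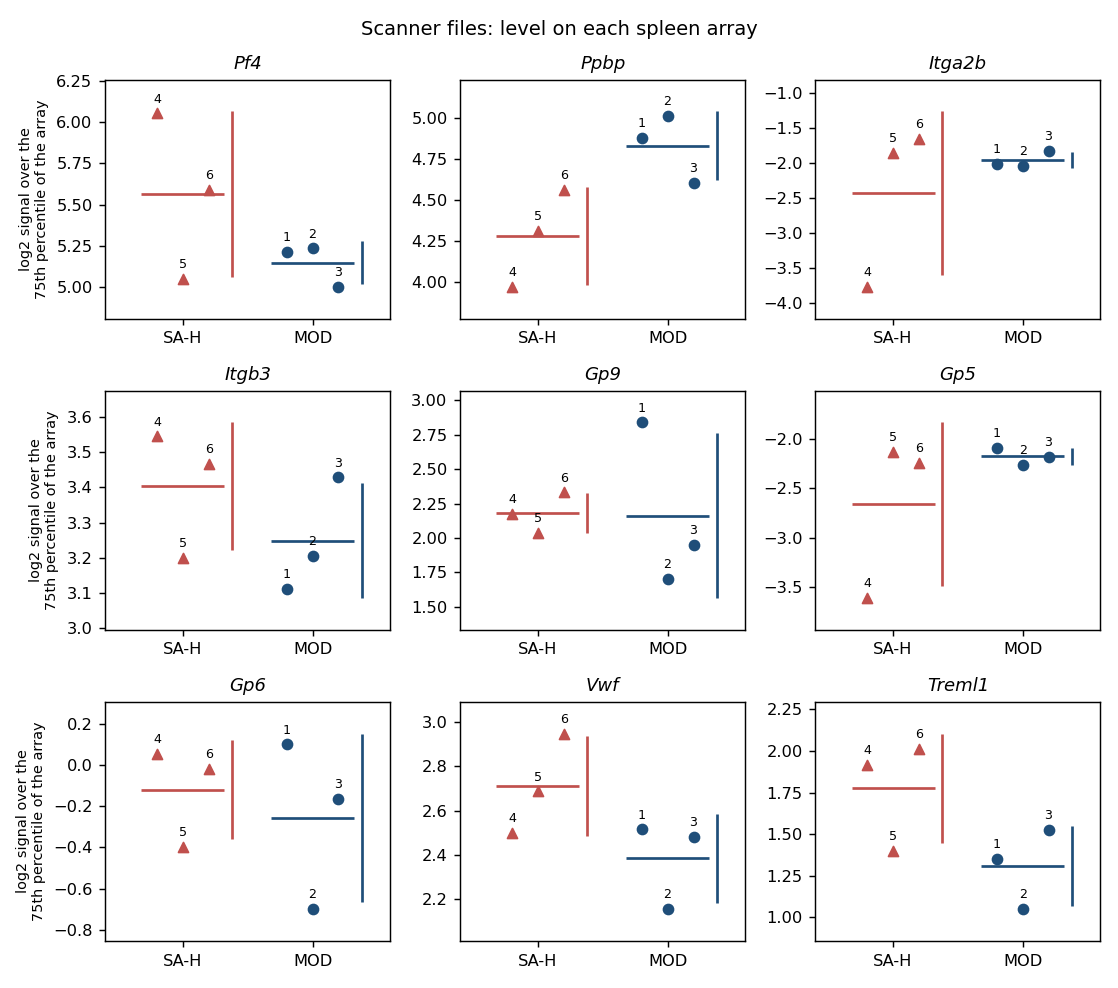
Level of each of the 9 tested genes on every array (y axis, log2 signal over the 75th percentile of the array), SA-H arrays as triangles and MOD arrays as circles, with the array number, the mean as a horizontal line and the SD (n = 3) as a vertical line. The groups overlap in every panel except Ppbp, and array SA-H 4 stands alone at the bottom for Itga2b (-3.77) and Gp5 (-3.61).

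The 9 genes did not move together from array to array. Over the 6 arrays, Pearson's r between 2 of them ran from -0.88 (Pf4 with Gp5) to 0.97 (Itga2b with Gp5), with a median of 0.13 over 36 pairs, 22 of them above 0. Neither the Itga2b nor the Gp5 probe was well above background on array SA-H 4, where both were at their lowest. Array MOD 2 was the lowest of the 6 for 4 genes and array SA-H 4 for 3, whereas array SA-H 6 and array MOD 1 were each the highest for 3. Points of 1 array share its RNA, labelling and brightness.

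In the value table the same 9 genes were lower in the SA-H group almost throughout. The table gives 1 column a sample, its values lie on a log2 scale with a median of 5.35 in each column, and its probes are not centred. Of the 14474 tested genes 9.02% were called in the table, 2.1% higher and 6.92% lower in the SA-H group, with a median change near 0. Among the 9 listed genes 7 were called lower (Pf4, Ppbp, Gp9, Gp5, Gp6, Vwf and Treml1) and 0 higher, and the median change was -1.58 on the log2 scale. An unadjusted p under 0.05 was reached by 8 of 9, all lower, against 32.7% of all genes, 16.3% higher and 16.4% lower. An adjusted p under 0.05 was reached by 4 of 9 (Pf4, Itgb3, Gp6 and Treml1), against 12.3% of all genes, 5.02% higher and 7.28% lower. The groups did not overlap for 8 of 9, all but Itga2b, against 38.0% of all genes, 19.9% higher and 18.1% lower.

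Column by column, SA-H 5 was the lowest for 9 of 9 genes. Pf4 had log2 table values of 11.86, 10.27 and 11.38 in the columns SA-H 4, 5 and 6, and 12.91, 12.82 and 12.86 in the columns MOD 1, 2 and 3. The MOD columns lay close together and every SA-H column lay below them, with a change of -1.70 and an interval of -2.64 to -0.75 (limma adjusted p = 0.0430). Ppbp had 10.62, 8.68 and 10.09 in the SA-H columns and 12.08, 11.83 and 11.43 in the MOD columns, a change of -1.99 with an interval of -3.19 to -0.78 (limma adjusted p = 0.0517). For this gene the table and the scanner files pointed the same way, with a 3.96-fold lower value in the table and a 1.47-fold lower one on the arrays. Treml1 had 7.92, 6.04 and 7.46 in the SA-H columns and 9.47, 9.32 and 8.76 in the MOD columns, a change of -2.04 with an interval of -3.25 to -0.84 (limma adjusted p = 0.0487). Its arrays had given a change above 0.

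Among the listed receptor genes, Gp6 had the smallest adjusted p in the table. Gp6 had 5.78, 4.80 and 5.50 in the SA-H columns and 7.27, 7.12 and 6.69 in the MOD columns, a change of -1.67 with an interval of -2.37 to -0.97 (limma adjusted p = 0.0235). Gp9 had 9.55, 7.71 and 9.34 in the SA-H columns and 10.52, 10.25 and 10.12 in the MOD columns, a change of -1.43 (limma adjusted p = 0.101). Both genes had non-overlapping columns where their arrays overlapped. Gp5 had 4.54, 2.41 and 4.12 in the SA-H columns and 5.50, 5.39 and 4.91 in the MOD columns, and its value of 2.41 is the lowest that the column SA-H 5 holds for any probe, so that the change of -1.58 (limma adjusted p = 0.107) rests on a floor there. Gp1ba had 6.94, 5.39 and 6.53 in the SA-H columns and 9.62, 9.43 and 9.19 in the MOD columns, which is 8.73-fold lower, with a change of -3.13 and an interval of -4.09 to -2.17 (limma adjusted p = 0.0118). The Gp1ba columns did not overlap and, as for Gp6, Gp9 and Treml1, the arrays gave a change above 0. The brightest Gp1bb probe, not tested, had 3.54, 3.17 and 3.73 in the SA-H columns and 4.50, 4.22 and 4.39 in the MOD columns.

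The integrin genes and Vwf had the smallest changes in the table. Itgb3 had 10.97, 10.11 and 10.66 in the SA-H columns and 11.70, 11.56 and 11.46 in the MOD columns, a change of -0.99 with an interval of -1.55 to -0.44 (limma adjusted p = 0.0438), which is 1.99-fold and so just short of the fold change limit. Itga2b had 7.25, 5.51 and 6.84 in the SA-H columns and 7.20, 7.21 and 7.15 in the MOD columns. Column SA-H 4 was the highest of the 6 for Itga2b, and the change of -0.66 had an interval of -1.70 to 0.39 (limma adjusted p = 0.335). Vwf had 9.39, 7.89 and 9.11 in the SA-H columns and 10.00, 9.90 and 9.79 in the MOD columns, a change of -1.10 with an interval of -2.03 to -0.17 (limma adjusted p = 0.107). Its called fold change of 2.14 was the smallest of the 7.

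**Figure D2:**
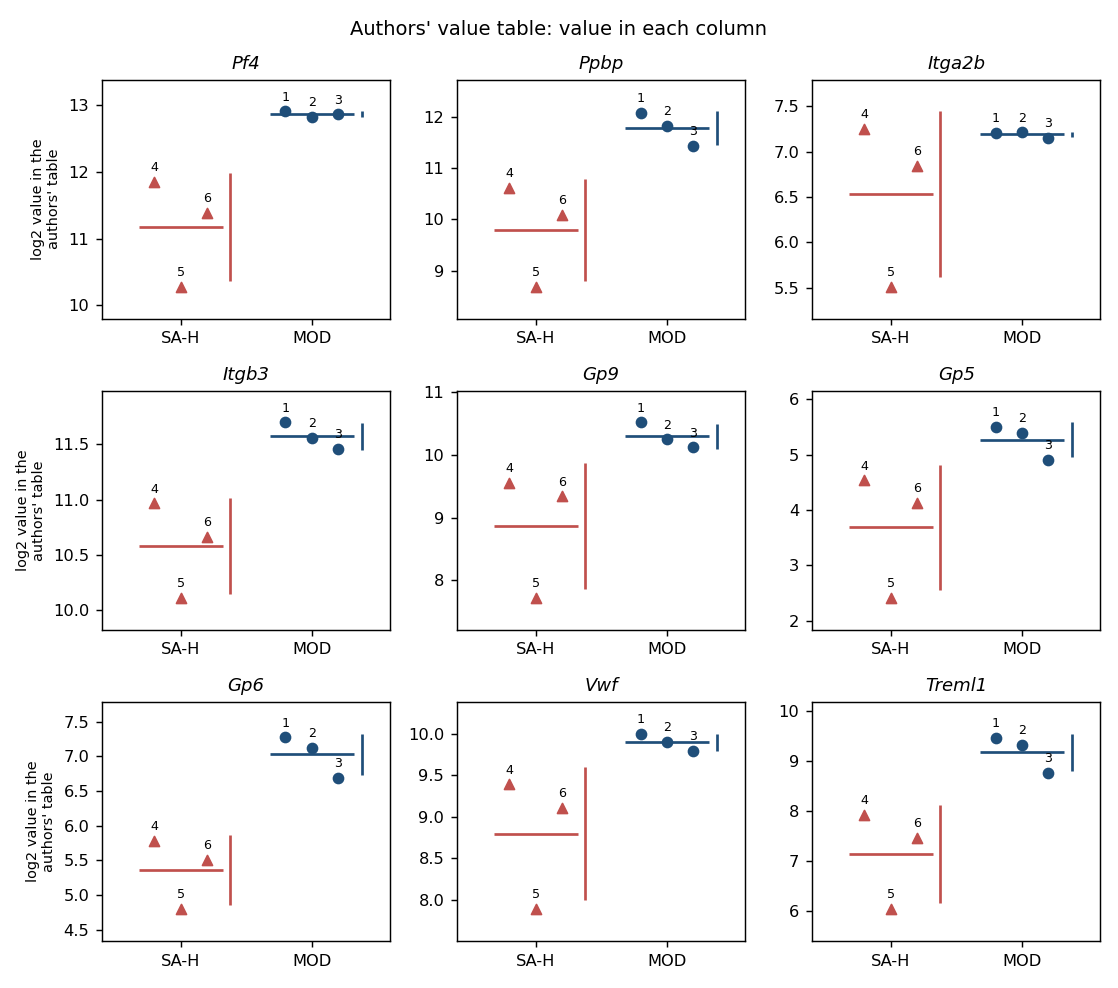
Log2 value of each of the 9 tested genes in every column of the value table (y axis), SA-H columns as triangles and MOD columns as circles, with the column number, the mean as a horizontal line and the SD (n = 3) as a vertical line. Column SA-H 5 is the lowest in all 9 panels, and the groups overlap for Itga2b alone.

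**Figure D3:**
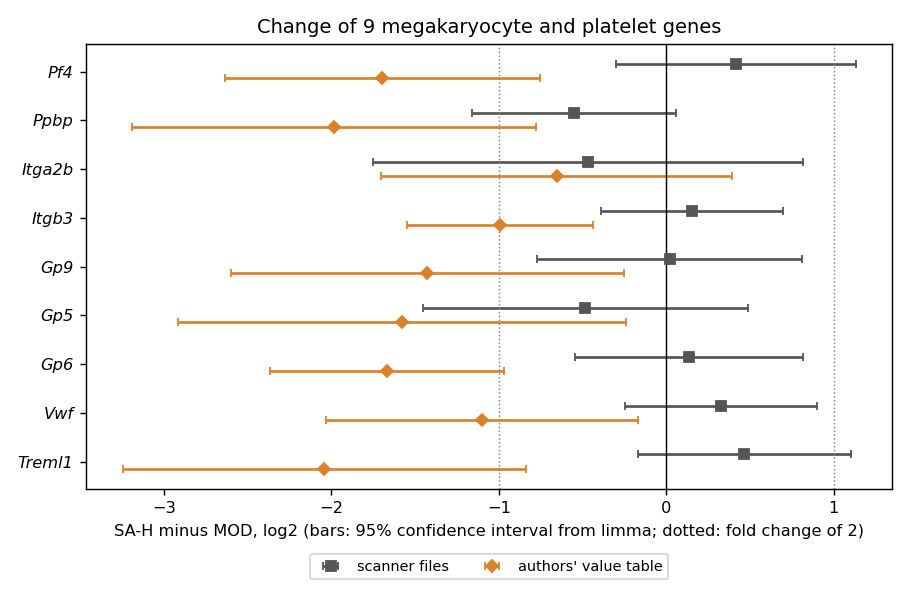
Change of each tested gene (x axis, SA-H minus MOD, log2) in the scanner files (squares) and in the value table (diamonds), with the 95% confidence interval from limma as bars and dotted lines at a fold change of 2. All 9 scanner intervals cross 0, whereas 8 of the 9 table intervals lie below it, Itga2b being the exception.

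The count of 7 genes depended on single columns of the table. Without column SA-H 5 it was 4 (Pf4, Ppbp, Gp6 and Treml1) and the median change was -0.94, and it was also 4, the same genes, without column MOD 1 or without column MOD 2. It was 7 without MOD 3, 8 without SA-H 6 and 9 without SA-H 4. Over all 14474 tested, the genes called lower in these fits ran from 776 (without MOD 1) to 1204 (without MOD 3), against 1002 with all columns. The count of 4 genes at a limma adjusted p under 0.05 became 0 without MOD 1, MOD 2 or SA-H 6, 1 without MOD 3, 5 without SA-H 4 and 7 without SA-H 5, while the genes past it over all tested ran from 74 (without MOD 2) to 2856 (without MOD 3), against 1779 with all columns. All changes of the 9 genes stayed below 0 in each of these fits. Between genes, the table columns moved nearly as 1 pattern, with Pearson's r over the 6 columns from 0.77 to 1.00 and a median of 0.98 over 36 pairs. Above 0.9 were 31 pairs, where 1 pair of the scanner levels was above 0.9. These r values include the difference between the groups. No such share was computed for pairs of other genes, so the pattern is not shown to be particular to these 9.

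The table columns did not follow the arrays of the samples they are named for. Over 13892 probes well above background on all 6 arrays, Spearman's rho between an array and the column of its own sample was 0.797 to 0.897, and between an array and a column of another sample 0.791 to 0.904. The own column gave the highest rho for 1 of 6 arrays, MOD 1. Each of the 3 SA-H arrays had its highest rho with a MOD column. After the mean of each probe was taken out, Pearson's r between an array and its own column ran from -0.27 (MOD 3) to 0.47 (MOD 1). For array SA-H 6 these centred values were 0.19 to 0.37 with the SA-H columns and -0.33 to -0.18 with the MOD columns, and for array MOD 2 they were -0.42 to -0.25 with the SA-H columns and 0.15 to 0.41 with the MOD columns, so both followed the columns of their own group. Array SA-H 4 had its highest centred value, 0.31, with column MOD 3, and array MOD 3 lay between -0.27 and 0.09 with all 6 columns. In 2 columns most values also lay between those of the other columns of the group: SA-H 6 lay between SA-H 4 and 5 for 76.9% of probes and MOD 2 between MOD 1 and 3 for 82.0%, whereas the highest such share among the arrays was 49.0%. Among the 9 listed genes, column SA-H 6 was the middle one of its group for 9 and column MOD 2 for 7. With both of these columns left out, an alternative chosen after seeing the data, 6 of 9 genes were called lower (Pf4, Ppbp, Itgb3, Gp9, Gp6 and Treml1). Over all 14474 tested, 751 were called lower and 898 in either direction. A limma adjusted p under 0.05 was reached by 0 of 9 as well as 0 of all genes. How the table was made from the arrays is not given in the sources used here, and the sample of each column was taken from its name.

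**Figure D4:**
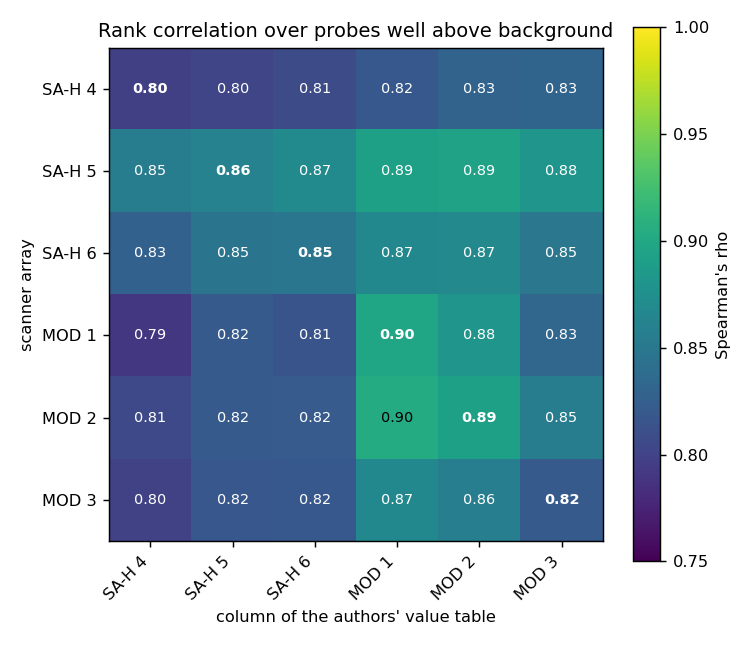
Spearman's rho over 13892 probes between each scanner array (rows) and each column of the value table (columns), with the array and column of the same sample in bold. The bold values span 0.797 to 0.897, and only the row of MOD 1 has its highest value in bold.

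The upstream regulators of the lineage had no called gene in the scanner files, against 12.8% of all tested genes. Of 15 transcription factors and thrombopoietin pathway genes 13 were tested, with a median change of -0.09. Past an unadjusted p of 0.05 were 0 in either direction, against 23.3% of all tested genes. The lowest p values belonged to Fli1 at -0.52 (limma adjusted p = 0.257), Gata1 at -0.73 (limma adjusted p = 0.261) and Nfe2, a factor of platelet release, at -0.45 (limma adjusted p = 0.337). Gata1 levels were 4.08, 2.75 and 3.38 on the SA-H arrays and 4.16, 3.98 and 4.25 on the MOD arrays, with array SA-H 4 inside the MOD range. In the table the same list had a median change of -0.77, with 6 of 13 called lower, against 6.92% of all tested genes, and 0 higher. Among those called lower were Gata1 at -2.55 (limma adjusted p = 0.0279) and Nfe2 at -1.61 (limma adjusted p = 0.0473). Tubb1, the tubulin of platelet marginal bands, stood at 0.04 in the scanner files and -0.91 in the table. Its probe was well above background on 5 of 6 arrays. Clec1b, the podoplanin receptor, stood at 0.21 and -0.84, and its other kept probes gave -0.05 and 0.15 in the scanner files.

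Called genes among other platelet receptors and their signaling proteins were 1 of 20 and 1 of 21 on the arrays, against 12.8% of all tested genes. An unadjusted p under 0.05 was reached by 23.3% of all tested genes, and among the 21 signaling genes by 1 higher and 1 lower. Of 25 further receptors and adhesion proteins 20 were tested, with a median change of 0.19, 2 higher and 1 lower at an unadjusted p under 0.05, and 1 called. The called gene was Cd36, a receptor for thrombospondin and fatty acids that macrophages and endothelium share, at -1.02 (limma adjusted p = 0.106), while the tetraspanin gene Cd63 stood at 0.77 (limma adjusted p = 0.144) and the contact receptor gene Pear1 at 0.56 (limma adjusted p = 0.199). The Pear1 probe was well above background on 5 of 6 arrays, with MOD 1 the lowest, and was kept through the SA-H group, where it was higher. In the value table the receptor median was -0.41 and 6 of the 20 were called lower, against 6.92% of all tested genes. Of 24 signaling genes 21 were tested, with a median of -0.11 and 1 called, Prkca, a protein kinase C, at 1.38 (limma adjusted p = 0.154), whose other probe gave 0.82. The phosphoinositide kinase subunit gene Pik3r1 stood at -0.95 (limma adjusted p = 0.105) and the integrin activator gene Fermt3 at -1.13 (limma adjusted p = 0.220). The probes of both were well above background on 5 of 6 arrays, every MOD array among them. They were thus kept through the group where they were higher, and Fermt3 was at -0.545 without array SA-H 4. Signaling genes had a median of -0.06 in the table, with 0 of 21 called lower and 1 higher, against 6.92% and 2.1% of all tested genes.

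Granule and cytoskeleton genes were mixed. Over all tested genes 12.8% were called on the arrays and 23.3% had an unadjusted p under 0.05 there, and 6.92% were called lower in the table. Of 27 granule and eicosanoid genes 25 were tested, with a median of -0.07, and 3 were higher and 2 lower at an unadjusted p under 0.05. Thbs1, the adhesive granule protein thrombospondin 1, had levels of 0.66, 1.12 and 1.29 on the SA-H arrays and 1.90, 1.86 and 2.04 on the MOD arrays. Its groups did not overlap, its change of -0.91 fell short of a fold change of 2 (limma adjusted p = 0.114), and in the table it was -1.88 (limma adjusted p = 0.0127). The 2 called genes were Stxbp2, which serves granule release, at 1.58 (limma adjusted p = 0.114) with -0.02 on its other probe, and Srgn, the proteoglycan of blood cell granules, at -1.23 (limma adjusted p = 0.140). In the value table their median was -0.31 and 7 of 25 were called lower. Of 19 cytoskeleton genes 14 were tested, with a median of 0.29 and 0 called, and the lowest p values were those of Zyx at 0.55 (limma adjusted p = 0.202), Myh9 at 0.62 (limma adjusted p = 0.231) and Vcl at 0.55 (limma adjusted p = 0.289), whose other probe gave -0.63. In the table their median was -0.32 and 1 was called lower, with Vcl at -1.50 (limma adjusted p = 0.0444).

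Markers of red cell precursors, which share Gata1 with megakaryocytes, moved with the listed genes in the table. Of 20 erythroid markers 18 were tested, and 17 of them were called lower in the table, against 6.92% of all tested genes, with a median of -2.43. Their summed table value, taken back to the linear scale, was 87410 to 143900 in the SA-H columns and 198400 to 354500 in the MOD columns. In the scanner files 4 of 18 were called lower, against 5.03% of all tested genes, with a median of -0.44. The summed level was 556.5 to 1409 on SA-H arrays and 688.3 to 855.7 on MOD arrays, which overlapped. T cell markers stood higher in the table, with 10 of 12 past an unadjusted p of 0.05 and a median of 0.75, against 0.02 on the arrays. Over all tested genes 16.3% were higher and 16.4% lower at that p in the table. Endothelial markers had a table median of 0.49, with 6 of 15 higher and 0 lower at an unadjusted p under 0.05, while Vwf was called lower. Mast cell and basophil markers had a table median of -1.24 over 6 tested and 0.05 on the arrays. Neutrophil and monocyte markers had a median of 0.28 on the arrays and -0.66 in the table over 13 tested, red pulp macrophage markers -0.56 and -0.08 over 11, B cell markers -0.11 and 0.31 over 9, and liver markers 0.65 and 0.04 over 5. Fat markers, at -2.38 on the arrays and -0.67 in the table over 7 tested, were the list furthest from 0 on the arrays. Of these 7, however, 2 were well above background on every SA-H array and 7 on every MOD array. Most were thus kept only through the group where they were higher, so the sign of their median was partly set by the filter. Pancreas markers had 2 of 11 tested. The part of these cells in the values of the 9 genes was not tested.

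**Figure D5:**
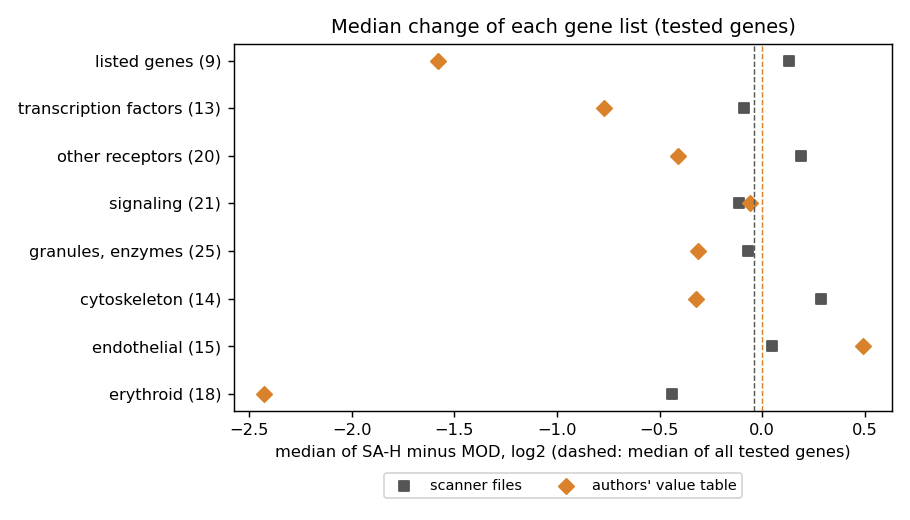
Median change (x axis, SA-H minus MOD, log2) of the tested genes of each list, whose number is in brackets, in the scanner files (squares) and the value table (diamonds), with dashed lines at the median of all tested genes. The listed genes lie at 0.13 in the scanner files and -1.58 in the table, and the erythroid markers at -0.44 and -2.43.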

How the data were processed

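The authors hybridised Cy3-labelled RNA of each spleen sample to a 1-colour Agilent mouse array and read it with Agilent Feature Extraction 11.0.1.1, per the file headers. The deposited scanner files give spot intensity, of which the processed signal is background-subtracted, and a separate table deposited by the authors gives log2 values, with their normalization not given in the sources used here. The labels also mention liver extraction.

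Control and outlier-flagged spots were left out, spots of 1 probe were averaged, and the log2 signal was centred on the 75th percentile of each array. Of 39429 probes, 27234 were named through RefSeq transcripts (GRCm38.p6 gene table), and 500 with a missing value were left out. Probes well above background on every array of at least 1 group were kept (16901 probes), and the brightest kept probe stood for its gene, which gave 14474 tested genes and unnamed targets, 11005 of them named. SA-H minus MOD was fitted over all 6 arrays with limma 3.58.1 (R 4.3.3), with Benjamini-Hochberg adjustment over all tested, after the procedure was tested on simulated data, and the table was fitted likewise on the same probes. Called means both a 2-fold change or more and an unadjusted p under 0.05, the limits drawn in the study's volcano plot. The files hold no mean signal, so the normexp alternative (offset 50) used median signals. Other alternatives were the scaling, the dim-probe filter, probe averaging, scan day and recorded scan time as blocks, an unmoderated fit and leaving out each array.

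The genes and lists were chosen with earlier results of these data known. Named beside the 10 genes were, of each other platelet list, up to 3 tested genes with the lowest p, Gp1ba, and the 5 genes most correlated with Pf4. Tubb1 and Clec1b were added as lineage markers, and Gata1 and Nfe2 serve both ways.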

Additional observations from a re-analysis of the deposited data

How the results depend on the processing

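None of the 9 genes was called under any alternative run on the scanner files, whereas 7 were called in the value table, with 4 to 9 over the table fits that left out 1 column. Over all tested genes 776 to 1204 were called lower in those table fits. On the scanner files the called genes over all tested were 1849, against 3158 with median scaling and 1135 without moderation. They were 1228 to 2466 when 1 array was left out, 1228 being without SA-H 4. An adjusted p under 0.05 was reached by 1094 genes with median scaling, 1075 with scan day as a block, 210 with normexp background, 22 without SA-H 4 and 0 to 2 in the other scanner alternatives, against 0. The median change of the 9 genes was -0.19 with median scaling, -1.58 in the table, 0.35 within the scan day of SA-H 4 and MOD 2, and -0.088 (without MOD 2) to 0.31 (without MOD 1) when 1 array was left out. The cause was not tested. With no filter on dim probes the called genes were 2363 of 32102.

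Signs turned in the table for Pf4 (-1.70), Itgb3 (-0.99), Gp9 (-1.43), Gp6 (-1.67), Vwf (-1.10), Treml1 (-2.04), Gp1ba (-3.13), Cd63 (-0.12), Prkca (-0.20), Fermt3 (0.18), Zyx (-0.41), Vcl (-1.50), Tubb1 (-0.91) and Clec1b (-0.84). They turned with median scaling for Itgb3 (-0.17), Gp9 (-0.30), Gp6 (-0.19), Tubb1 (-0.28) and Clec1b (-0.11), and with normexp background for Itga2b (0.073), Itgb3 (-0.11), Gp9 (-0.26), Gp5 (0.026) and Clec1b (-0.012). The mean over probes turned Vcl (-0.038), quantile normalization Tubb1 (-0.19), and the scan time as a random block Tubb1 (-0.042). Leaving out 1 array gave ranges across 0 for Itga2b (-0.85 to 0.20), Gp9 (-0.21 to 0.36), Gp6 (-0.088 to 0.31), Tubb1 (-0.19 to 0.37) and Clec1b (-0.013 to 0.47). Within the scan day of SA-H 6, MOD 1 and MOD 3 the sign differed for Itga2b (0.26) and Gp9 (-0.06), and within that of SA-H 4 and MOD 2 for Gata1 (0.10) and Tubb1 (-0.45). Pf4, Ppbp, Treml1 and Vwf kept their sign in every scanner alternative, though some values came near 0. Those nearest 0 were 0.085 for Pf4 with quantile normalization, and 0.007 for Vwf and 0.145 for Treml1 with median scaling. For Ppbp it was -0.179, within the scan day of SA-H 6, MOD 1 and MOD 3.

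No paired analysis was possible because the sample titles of the 2 groups share no numbers. Array SA-H 4 was the dimmest, with a 75th percentile of 220, and the Itga2b and Gp5 probes were not well above background there. Gp1bb was dim in both groups.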

Other observations

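The 5 genes whose scanner levels followed Pf4 most closely over the 6 arrays, among 9096 named genes well above background on all arrays, were Gsn, Tpt1, Sprr2a2, Ebna1bp2 and Psma3, each with Pearson's r of 0.99 or more, and 444 of the 9096 had r above 0.9. Gsn encodes the actin-severing protein gelsolin, and its levels were 4.24, 3.53 and 3.92 on the arrays SA-H 4, 5 and 6, and 3.64, 3.67 and 3.42 on the arrays MOD 1, 2 and 3. Like Pf4, it was highest on array SA-H 4 and lowest on array MOD 3. In the value table r with Pf4 over the 6 columns was 0.92 for Gsn, 0.03 for Tpt1, -0.80 for Sprr2a2, -0.64 for Ebna1bp2 and -0.15 for Psma3.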
